A study of Mus musculus with 12 samples.

Results

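The 32 genes described here carry calcium, sodium and potassium across the membranes of the heart muscle cell: pumps, exchangers, channels, their subunits and the proteins that store, release or sense calcium. They were chosen by name and function from the 55401 genes of the count tables, and 29 of them had enough counts to be among the 6596 genes tested. They were followed in total RNA (Input) and in RNA pulled down with tagged ribosomes (IP) from adult mouse hearts, wild-type (WT) or lacking the ribosomal protein gene Rpl3l (Rpl3l-/-, called KO here). Rpl3l is a paralog of Rpl3 that striated muscle expresses. Each of the 4 groups, WT Input, KO Input, WT IP and KO IP, held 3 libraries that the study's design calls biological replicates, read as nanopore direct cDNA and counted per gene. Hearts for the IP libraries were treated with cycloheximide, an inhibitor of elongation, and their ribosomes were caught with an antibody against the HA tag. The labels give the age only as adult, give no strain or sex, and name neither the tagged protein nor the promoter or cell type that drives it.

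In each heartbeat, calcium entering through the L-type channel opens the ryanodine receptors of the sarcoplasmic reticulum (SR), the calcium store of the muscle cell. The released calcium starts contraction, and the SR pump SERCA2, the product of Atp2a2, then takes most of it back up while the sodium-calcium exchanger (Slc8a1) removes the rest from the cell. Phospholamban, encoded by Pln, slows the pump until it is phosphorylated, sodium and potassium channels shape the action potential, and the sodium-potassium pump keeps the gradients on which all of this runs.

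Pln, Calm2 and Calm3 are shown by their coding sequence because each bears on what a count per gene stands for. Calmodulin is the calcium sensor that binds the L-type channel, the ryanodine receptor and the kinase CaMKII. Calm2 and Calm3 encode the identical protein, so reads are told apart by synonymous bases and by the untranslated regions. Their coding sequences of 450 bases differ at 78 positions, 74 of them at the last base of a codon, and were identical at 82.67% of bases. The stretch of 120 bases from the start codon is given 5′ to 3′ (annotation GENCODE M21, build GRCm38), with capitals at the 18 positions where the genes differ. The genes lie at chr17:87433412-87446935 (Calm2, minus strand) and chr7:16915379-16924114 (Calm3, minus strand).
Calm2: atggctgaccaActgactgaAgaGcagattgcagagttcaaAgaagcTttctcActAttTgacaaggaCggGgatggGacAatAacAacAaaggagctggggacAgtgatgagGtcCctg
Calm3: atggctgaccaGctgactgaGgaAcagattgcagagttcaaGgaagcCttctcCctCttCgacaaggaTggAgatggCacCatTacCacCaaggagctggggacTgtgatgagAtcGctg
The whole coding sequence of phospholamban (chr10:53337667-53345987, plus strand) has 159 bases with its stop codon. Capitals mark codons 16 and 17, the serine and the threonine whose phosphorylation frees the pump. The coding part is a small fraction of the annotated Pln transcript of 2334 bases.
Pln: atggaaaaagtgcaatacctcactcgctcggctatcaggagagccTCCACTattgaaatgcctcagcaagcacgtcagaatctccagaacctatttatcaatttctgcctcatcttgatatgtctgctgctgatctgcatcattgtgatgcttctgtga

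Library totals ran from 169359 counts (KO Input replicate 3) to 710868 (KO IP replicate 2). CPM are counts scaled to a common library size, and 3 counts stood for 4.22 to 17.7 CPM of these raw totals. With the further scaling used for the levels below, 3 counts in KO Input replicate 3 were 16.3 CPM. The targeted gene had 83 to 125 counts in the WT Input libraries and 7 to 18 in the KO Input libraries, 156 to 182 counts in WT IP and 1 to 5 in KO IP. Of 8 cardiomyocyte markers 7 were counted, and Actc1 was listed at 0 in all 12 libraries. The cardiomyocyte sum was 59630 to 68100 CPM in WT Input and 53600 to 57530 CPM in WT IP, without overlap. In KO it was 53000 to 63880 CPM in Input and 50690 to 57860 CPM in IP, overlapping. The log2 differences of the 7 markers between IP and Input ran from -1.51 to 0.32 in WT and from -1.38 to 0.64 in KO. Atrial muscle markers (6 of 6 counted) summed to 6561 to 11440 CPM in the Input libraries and 368.8 to 1124 CPM in the IP libraries. Adipocyte markers (6 of 6 counted) summed to 124.9 to 866.9 CPM in Input and 15.6 to 80.8 CPM in IP, endothelial markers (9 of 9) to 2303 to 3465 and 1693 to 2252 CPM, and globin genes took 1.70% to 17.2% of a library's counts. Fabp4 held most of the endothelial sum (mean 1782 of 2640 CPM in WT Input), and the endothelial markers went both ways. Their log2 differences between IP and Input ran from -1.97 to 0.81 in WT and from -1.80 to 1.35 in KO. In WT the fibroblast markers summed to 1198 to 1377 CPM in Input and 1399 to 1703 CPM in IP, and Schwann or neuron markers to 12.84 to 26.21 and 0 to 8.416 CPM, without overlap. In KO both sums overlapped between the fractions, as did those of smooth muscle, macrophage and conduction cell markers in each genotype, and Tcf21 and Th were listed at 0 throughout. What part these sums have in the differences between IP and Input was not tested. A pulldown from untagged hearts was not analysed here. Input RNA was extracted with TRIzol and IP RNA on columns, and cycloheximide is described for the hearts of the IP libraries. Fraction, extraction, cycloheximide and cell composition therefore cannot be told apart in any comparison of IP with Input. In such bulk samples fewer cells of a type and less RNA per cell cannot be told apart either.

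No calcium-handling or channel gene differed past the threshold between KO and WT hearts, in total RNA or on ribosomes. The differences that passed lay between the fractions. Jph2 and Asph, which hold the calcium release site together, were higher in IP than in Input in both genotypes, and Fxyd1, a regulator of the sodium-potassium pump, was lower in both. Atp2a2 and Srl were higher and Sri lower in IP of WT hearts, and Tmem38a was lower in IP of KO hearts. With the trend of the ratios over transcript length removed, the calls of Asph, Fxyd1, Atp2a2 and Srl ended. The 32 genes together took 1.66% to 2.46% of the counts of an Input library and 2.22% to 2.65% of those of an IP library. Levels are CPM scaled by the trimmed mean of M values (TMM). The log2 fold changes and the p adjusted over all genes tested, with a threshold of 0.05, came from edgeR's quasi-likelihood test, fitted to all 12 libraries. Standard errors (SE) were derived from each log2 fold change and its F statistic in that test, and the 95% intervals from these SE.

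In WT hearts 6 of the 29 members tested (20.7%) passed the threshold between IP and Input, where 14.0% of all genes tested did. Of these, 4 were higher in IP, against 5.37% of all genes, and 2 lower, against 8.67%. In KO hearts 4 members (13.8%) passed, against 16.4% of all genes, with 2 higher (6.64% of all genes) and 2 lower (9.78%). The median log2 difference of the 29 members was 0.19 in WT and 0.10 in KO, beside 0.02 and 0.01 for all genes tested. The share of members called was above that of all genes in WT and below it in KO.

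Of the 2 genes of SR uptake, Atp2a2 (chr5:122453513-122502225) encodes the pump whose activity sets how much calcium is stored. Its level was 8024, 8076 and 7597 CPM in the WT Input libraries and 11231, 12309 and 11668 CPM in WT IP, without overlap. That was a 1.49-fold higher level in IP (log2 fold change 0.57, SE 0.18, adjusted p 0.0294). In KO it was 7335, 7548 and 10285 CPM in Input and 10118, 11682 and 11197 CPM in IP, where KO Input replicate 3, the smallest library, lay above the lowest IP library. The KO difference was 0.39 (SE 0.18, adjusted p 0.134), and 0.57 (adjusted p 0.0142) without KO Input replicate 3. DESeq2 and limma-voom called it in KO as well, with adjusted p of 0.0354 and 0.0103. In WT the difference missed the threshold when any 1 of the 6 WT libraries was left out, with adjusted p from 0.0559 to 0.0988. The difference between the genotypes' ratios was itself -0.18 (SE 0.25, adjusted p 0.925). Reads are counted per gene, so the cardiac and the general isoform of the pump are not separated.

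Pln, whose product holds the pump back, did not pass in either genotype. It was at 3818, 4208 and 3548 CPM in WT Input and 4314, 4460 and 4078 CPM in WT IP, and at 3932, 3671 and 4150 CPM in KO Input and 3196, 3689 and 3658 CPM in KO IP. The groups overlapped in either genotype, with log2 differences of 0.15 (SE 0.16, adjusted p 0.570) in WT and -0.16 (SE 0.16, adjusted p 0.554) in KO.

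A ratio of counts within a library needs no scaling between libraries, and the number of Pln counts per 100 Atp2a2 counts was taken for that reason; it is not a ratio of molecules, since read capture can differ between the transcripts. In WT there were 47.6, 52.1 and 46.7 in Input and 38.4, 36.2 and 35.0 in IP. In KO there were 53.6, 48.6 and 40.3 in Input and 31.6, 31.6 and 32.7 in IP. The Input libraries lay above the IP libraries in each genotype, the KO IP libraries lay below the WT IP libraries, and the Input libraries of the genotypes overlapped. For each of the 3 separated pairs the exact two-sided permutation p was 0.10, the smallest that 3 against 3 libraries can give, and 0.20 after adjustment over the 12 ratio and share comparisons made. The means were 48.8 ± 2.90 (SD, n = 3) and 47.5 ± 6.69 in WT and KO Input, and 36.5 ± 1.75 and 31.9 ± 0.627 in WT and KO IP. These ratios were not adjusted for transcript length, which is 2334 bases for Pln and 4486 for Atp2a2 in the annotation.

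**Figure D1:**
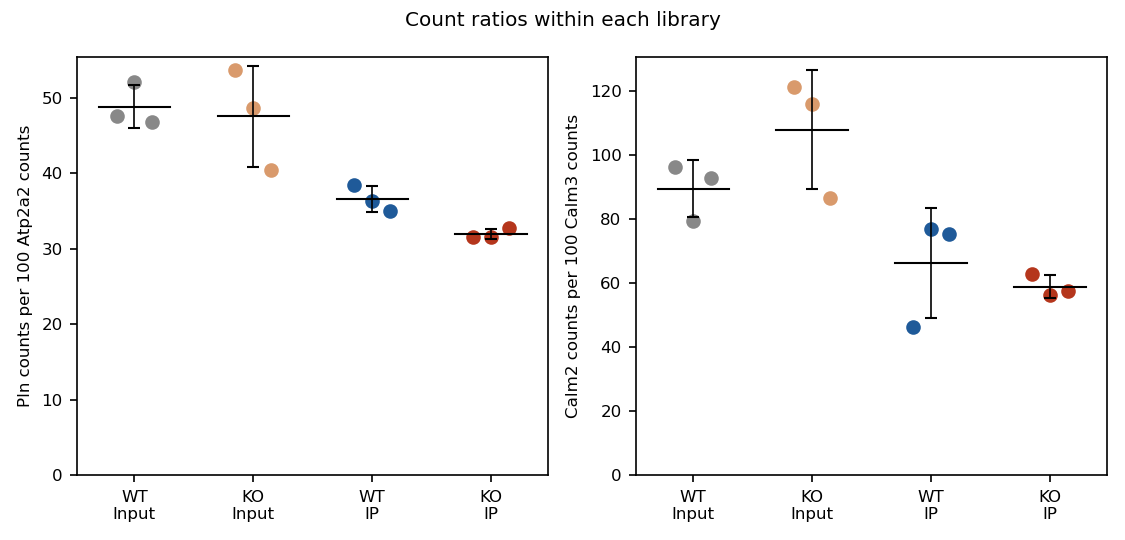
Counts of Pln per 100 counts of Atp2a2 (left) and of Calm2 per 100 of Calm3 (right) in each library (points), with the mean (long line) and SD (bars) of 3 libraries per group. IP libraries lie below the Input libraries of their genotype in both panels, and in the left panel KO IP (31.6 to 32.7) lies below WT IP (35.0 to 38.4).

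The luminal store proteins come next. Of calsequestrin (Casq2), which binds calcium in the SR lumen, the histidine-rich calcium binding protein (Hrc) and sarcalumenin (Srl), a luminal protein that keeps the pump stable, Srl passed in WT and the other two in neither genotype. Srl (chr16:4480216-4541816) was at 479, 415 and 356 CPM in WT Input and 579, 568 and 707 CPM in WT IP. All IP libraries lay above all Input libraries (1.48-fold, log2 fold change 0.56, SE 0.16, adjusted p 0.0221). In KO the levels were 524, 387 and 566 CPM in Input and 578, 566 and 561 CPM in IP, overlapping, with a difference of 0.21 (SE 0.17, adjusted p 0.422). The genotypes' ratios differed by -0.35 (SE 0.24, adjusted p 0.820), so a difference between them was not shown. The WT call was lost without WT IP replicate 3 (adjusted p 0.112), WT Input replicate 2 (0.0791) or WT Input replicate 3 (0.125). Casq2 and Hrc had log2 differences of -0.04 and 0.19 in WT and -0.23 and 0.33 in KO.

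At the SR release site 2 of 6 members tested were higher and 1 lower in IP of either genotype, where 5.37% of all genes were higher and 8.67% lower in WT, and 6.64% and 9.78% in KO. Junctophilin 2 (Jph2, chr2:163336242-163397993) ties the SR to the T-tubule membrane. Its level was 174, 249.9 and 247 CPM in WT Input and 440.1, 388 and 459.5 CPM in WT IP, and 266, 250.4 and 267 CPM in KO Input and 638, 465 and 394 CPM in KO IP. Every IP library lay above every Input library. The log2 fold change was 0.94 (SE 0.19, adjusted p 0.000965; 1.92-fold) in WT and 0.93 (SE 0.19, adjusted p 0.0014; 1.90-fold) in KO.

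Asph (chr4:9448069-9669344) encodes, by alternative splicing, junctin, which anchors calsequestrin to the ryanodine receptor, and an aspartate beta-hydroxylase, and a count per gene does not separate them. It was at 250.2, 236 and 209 CPM in WT Input and 395, 355 and 362 CPM in WT IP. In KO it was at 215, 188 and 223 CPM in Input and 339, 375 and 302 CPM in IP. Again the fractions did not overlap, with log2 fold changes of 0.67 (SE 0.16, adjusted p 0.00505) in WT and 0.71 (SE 0.17, adjusted p 0.0052) in KO. The calls of Jph2 and Asph held in each of the 6 fits per genotype that left out 1 library, but those of Asph ended with the length trend removed (0.44, adjusted p 0.0530, in WT and 0.39, adjusted p 0.114, in KO). Triadin (Trdn), the partner of junctin, had differences of 0.31 (SE 0.16, adjusted p 0.207) in WT and 0.17 in KO.

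Sorcin (Sri, chr5:8046078-8069379) is a small calcium binding protein that dampens the ryanodine receptor. It was at 97.7, 104 and 99.5 CPM in WT Input and 48.1, 55.7 and 48.8 CPM in WT IP, a fall by 0.98 on the log2 scale (SE 0.26, adjusted p 0.012). In KO Input it was at 58.2, 125 and 76.1 CPM and in KO IP at 42.4, 52.5 and 60.4 CPM. KO Input replicate 1 lay below the highest KO IP library, and the KO difference was -0.74 (SE 0.28, adjusted p 0.0785). The WT call ended without WT IP replicate 1 (adjusted p 0.0563), and the KO difference ran from -0.98 (adjusted p 0.0357) without KO Input replicate 1 to -0.33 (adjusted p 0.573) without KO Input replicate 2. It also passed with at least 30 counts in 3 libraries (-0.76, adjusted p 0.0484). The genotypes' ratios differed by 0.24 (SE 0.38, adjusted p 0.938).

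Tmem38a (chr8:72572055-72587282) encodes TRIC-A, a channel of the SR that passes potassium as a counter-ion when calcium leaves. Its levels were 346, 370.1 and 324 CPM in WT Input, 419, 419.8 and 419 CPM in KO Input, 323, 339 and 337 CPM in WT IP and 301, 264 and 324 CPM in KO IP. In KO all IP libraries lay below all Input libraries (log2 fold change -0.50, SE 0.16, adjusted p 0.0267), whereas the WT fractions overlapped at 322.6 to 370.1 CPM (-0.06, SE 0.15, adjusted p 0.833). The difference between those ratios was -0.44 (SE 0.22, unadjusted p 0.0517, adjusted p 0.715). The KO call was lost without KO IP replicate 1 (adjusted p 0.0520), KO IP replicate 2 (0.129), KO Input replicate 1 (0.0762) or KO Input replicate 2 (0.0781). It was also lost when libraries were scaled by their totals (-0.37, adjusted p 0.163), which raised the median over all genes by 0.147 here; relative to that median Tmem38a was still lower in IP. Without a count filter (-0.39, adjusted p 0.270), with only the compared libraries (-0.49, adjusted p 0.0759) and without replicate 3 of both Input groups (-0.50, adjusted p 0.0524) it was lost too, so that 8 of 18 alternatives ended it. Fkbp1a, whose product binds the ryanodine receptor, had differences of -0.18 in WT and 0.34 in KO, neither past the threshold.

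**Figure D2:**
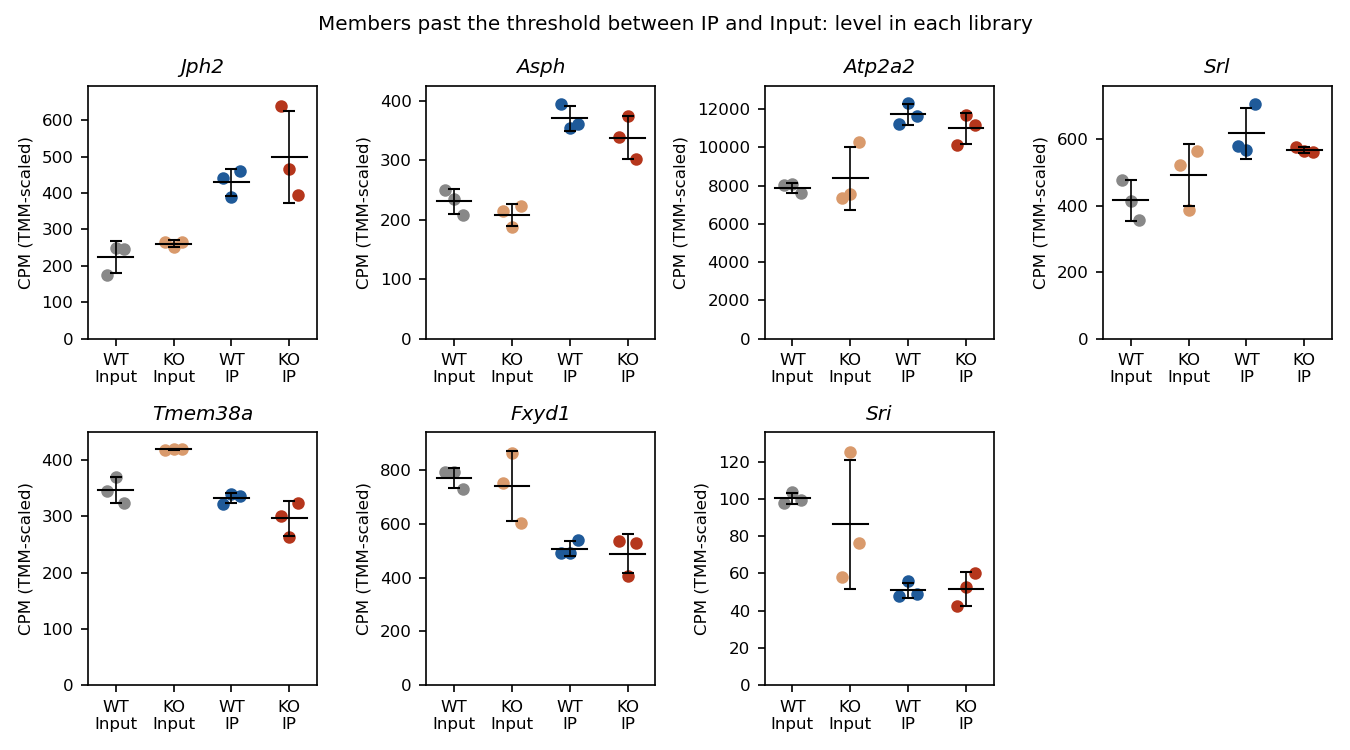
Level in CPM (TMM-scaled) of the 7 members past the threshold between IP and Input, in each library (points), with mean (long line) and SD (bars) of 3 libraries per group. For Jph2 and Asph every IP library lies above every Input library, and for Fxyd1 every one lies below the Input libraries of its genotype.

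None of the 4 genes of calcium entry and exit at the cell membrane passed in either genotype. The pore of the L-type channel, Cacna1c, was at 129, 141 and 186 CPM in WT Input and 100.5, 113 and 118 CPM in WT IP (-0.45, SE 0.19, adjusted p 0.122), and its difference in KO was -0.27 (SE 0.21, adjusted p 0.404). Its auxiliary subunit Cacna2d1, which brings the channel to the membrane, had differences of 0.56 (SE 0.19, adjusted p 0.0524) in WT and 0.15 in KO, and passed in WT with DESeq2 size factors, library totals or only the compared libraries. The beta subunit Cacnb2 had 0.43 in WT and -0.69 in KO, with SE of 0.35 and 0.37. The exchanger Slc8a1 had 0.08 and 0.29.

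Among the calcium sensors, Calm2, Calm3, the kinase gene Camk2d and S100a1, which binds SERCA2 and the ryanodine receptor, did not pass in either genotype. Calm2 and S100a1 passed in WT with at least 30 counts in 3 libraries, and S100a1 also with only the compared libraries there and in KO without KO Input replicate 3. Calm2 was at 179, 146 and 128 CPM in WT Input and 99.05, 109.7 and 125 CPM in WT IP. It was at 186, 188 and 141 CPM in KO Input and 125, 116 and 134 CPM in KO IP, so the IP libraries lay below the Input libraries in each genotype. The differences were -0.46 (SE 0.19, adjusted p 0.116) and -0.48 (SE 0.20, adjusted p 0.105), while those of Calm3 were 0.03 (SE 0.19, adjusted p 0.936) and 0.42 (SE 0.20, adjusted p 0.164). For 100 Calm3 counts there were 96.2, 79.5 and 93.0 Calm2 counts in WT Input and 46.4, 77.0 and 75.5 in WT IP. In KO there were 121, 116 and 86.7 in Input and 62.9, 56.4 and 57.5 in IP. The fractions did not overlap in either genotype (exact permutation p 0.10, the smallest possible, and 0.20 adjusted over the same 12 comparisons), and the genotypes overlapped in either fraction. These are the genes printed above that encode the same protein. The annotated Calm2 transcript has 1205 bases and that of Calm3 2290. With the length trend removed, the differences of Calm2 were -0.13 in WT and -0.12 in KO, and those of Calm3 0.05 and 0.45. The count ratios were not adjusted for length.

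Of the sodium genes, phospholemman (Fxyd1, chr7:31051678-31057199), the counterpart of phospholamban at the sodium-potassium pump, was at 794, 792 and 729 CPM in WT Input and 491, 493 and 540.3 CPM in WT IP. In KO it was at 754, 865 and 604 CPM in Input and 535, 406 and 528 CPM in IP. The IP libraries lay below the Input libraries in each genotype, by 0.60 (log2 fold change -0.60, SE 0.16, adjusted p 0.0105) in WT and 0.61 (-0.61, SE 0.16, adjusted p 0.0101) in KO. The WT call was lost without WT IP replicate 1 (adjusted p 0.0655), WT IP replicate 2 (0.0558) or WT Input replicate 1 (0.0533), and the KO call without KO IP replicate 2 (0.0809) or KO Input replicate 2 (0.0938), with library totals (0.0632) or without a count filter (0.0697). With the length trend removed both calls ended, at -0.05 (adjusted p 0.860) in WT and 0.04 (adjusted p 0.885) in KO. The pump's beta subunit Atp1b1 went the other way in WT without passing (0.44, SE 0.17, adjusted p 0.0819), except with only the compared libraries, and had 0.10 in KO. Scn4b, a beta subunit of sodium channels, had 5 to 34 counts per library and differences of 0.33 and 0.36 with SE of 0.35 and 0.45.

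None of the 6 potassium channel genes tested passed, although Kcnj2 did in KO without a count filter, without KO Input replicate 3 and without replicate 3 of both Input groups. The differences ran from -0.26 (Kcnip2, the accessory subunit of the transient outward channel) to 1.16 (Kcnd2, its pore; SE 0.46, adjusted p 0.0943) in WT. In KO they ran from -0.96 (Kcnq1, the slow delayed rectifier; SE 0.45, adjusted p 0.158) to 0.86 (Kcnj2, the inward rectifier; SE 0.38, adjusted p 0.135). The SE of this group were 0.21 to 0.46, beside 0.15 to 0.28 at the release site. Kcnh2, the rapid delayed rectifier, had 0.10 and 0.61, and Kcnj11, the pore of the ATP-sensitive channel, 0.39 and 0.03. Ankyrin B (Ank2), which holds the exchanger and the sodium pump at the T-tubule, had 0.19 and 0.14.

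The 3 members not tested were near the floor. Fkbp1b, which encodes calstabin 2 of the cardiac ryanodine receptor, had 10 counts in all 12 libraries together and 0 in each KO Input library. Kcna5, the ultrarapid delayed rectifier, had 47 counts, and Stim1, the SR sensor that opens store-operated entry, had 81. Their levels stayed under 21.8 CPM in every library, and the count filter left them out of the test. Without a count filter, where all 32 members were tested, none of the 3 passed in any contrast.

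**Figure D3:**
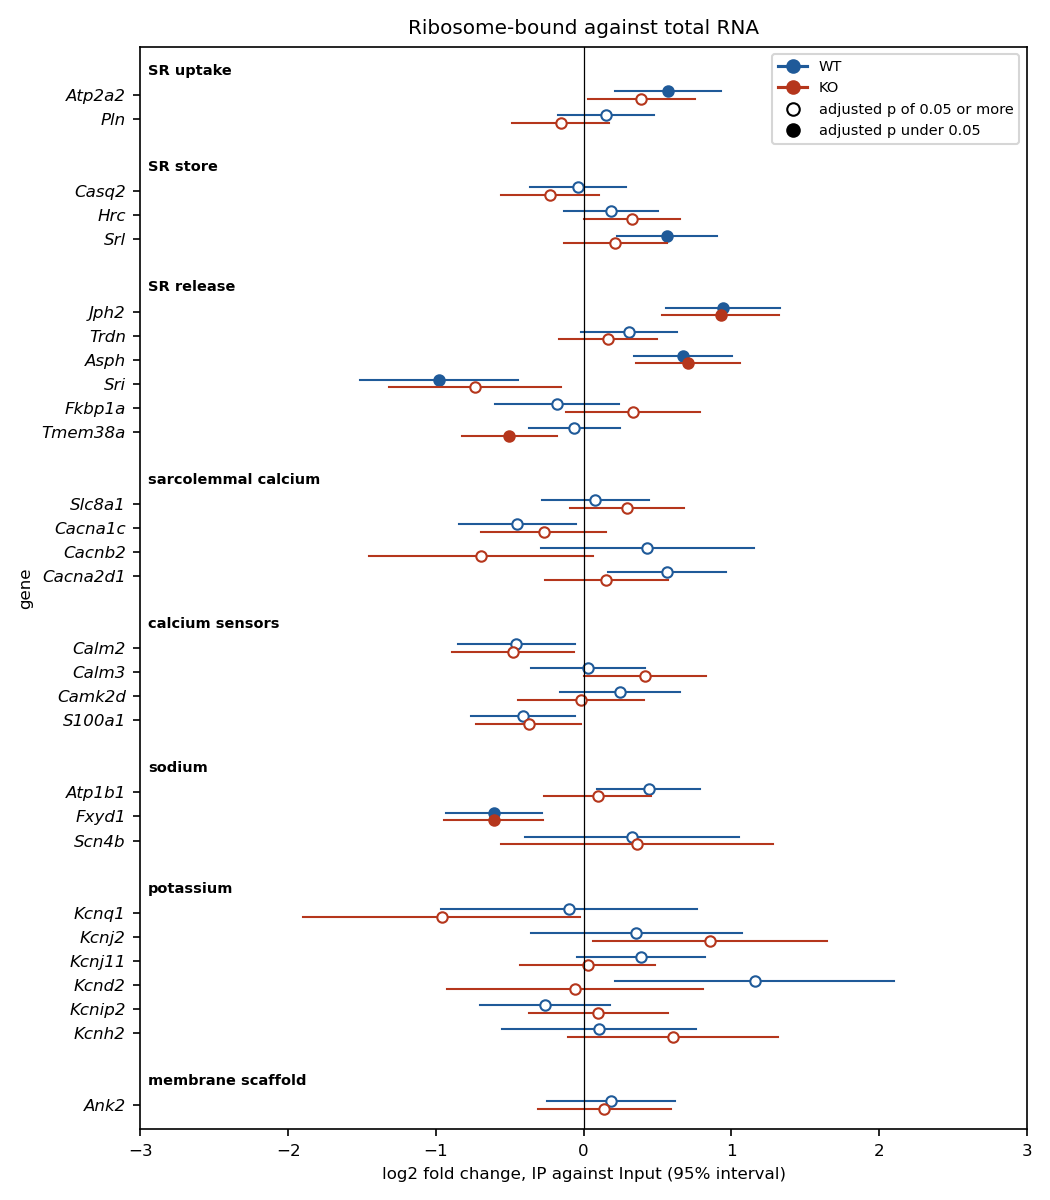
Log2 fold change of IP against Input for the 29 members tested, by role, in WT (blue) and KO (red), with 95% intervals; filled points passed the adjusted p threshold of 0.05. Jph2, Asph and Fxyd1 are filled in both genotypes.

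Between the genotypes the ratios of IP to Input went together in part. The WT and KO ratios used separate libraries, and 23 of 29 members (79.3%) had the same sign in both, beside 73.6% of all genes tested. Pearson's r across the 29 members was 0.57 with a Spearman's rho of 0.53, beside 0.66 and 0.62 across all genes, given without a test because genes of 1 library share its depth and scaling. The largest disagreements in size were at genes of few counts, Kcnd2 (1.16 in WT and -0.06 in KO) and Cacnb2 (0.43 and -0.69).

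The ratio of IP to Input also went with transcript length. Among all genes tested, those with a longest annotated transcript of up to 1000 bases had a median log2 ratio of -0.49 in WT and -0.56 in KO, and those over 7000 bases 0.23 and 0.37. Spearman's rho between length and ratio was 0.30 and 0.34 across all genes with a length, and 0.56 and 0.37 across the 29 members, as a description. Fxyd1 (620 bases) and S100a1 (677 bases) are the shortest members tested and were lower in IP, by 0.60 and 0.41 in WT, close to the median of genes of their length.

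With the length trend removed, 3 members passed in each genotype, where 11.9% of all genes passed in WT and 13.4% in KO. Besides those of Fxyd1 and Asph given above, the WT calls of Atp2a2 (0.42, adjusted p 0.0530) and Srl (0.38, adjusted p 0.101) ended. The lengths used for Asph (6694 bases) and Atp2a2 (4486 bases) are those of the longest annotated transcript. The isoforms read are not known, so the length removed may be wrong for these genes. Jph2 remained past the threshold at 0.82 (adjusted p 0.00384) in WT and 0.80 (adjusted p 0.00574) in KO. So did Sri in WT (-0.98, adjusted p 0.0129) and Tmem38a in KO (-0.45, adjusted p 0.0371). Cacna1c, with an annotated transcript of 13162 bases and a level in IP below that of Input, then passed in both genotypes, at -0.71 (adjusted p 0.0165) and -0.70 (adjusted p 0.0251). It did not pass in either genotype before that removal. The isoforms read are not known for Cacna1c either, so these calls depend on the length used. What part length, extraction, cycloheximide, cell composition or ribosome loading has in the ratios was not tested.

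**Figure D4:**
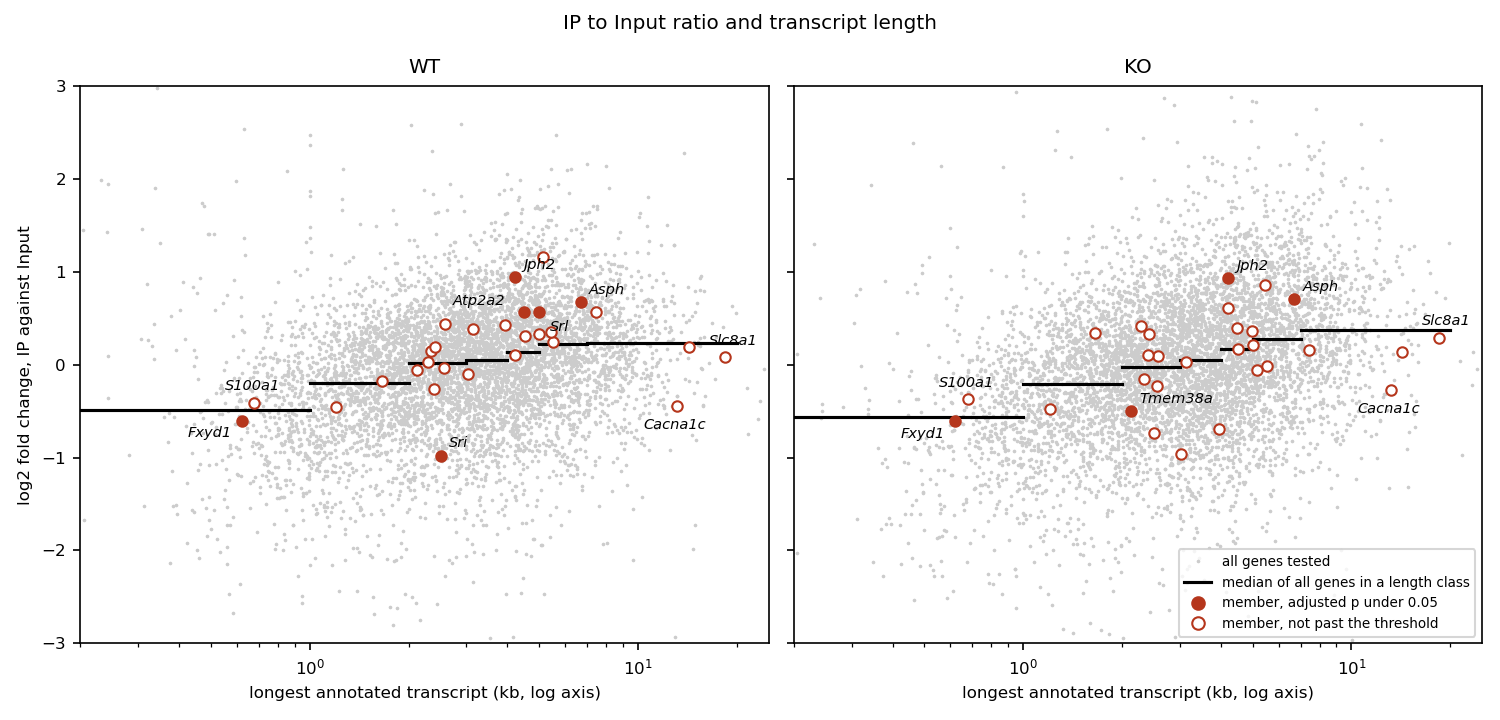
Log2 fold change of IP against Input and the length of the longest annotated transcript (log axis, kb) for all genes tested (grey), in WT (left) and KO (right), with black lines at the median of 7 length classes and the 29 members in red, filled where past the threshold. Fxyd1 sits near the median of genes of its length, Jph2 above and Sri and Cacna1c below theirs.

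Comparing KO with WT hearts asks whether loss of Rpl3l shifts these transcripts in the tissue or on its ribosomes. In Input, 0 of the 29 members tested passed, where 12 of 6596 genes (0.182%) did, and in IP 0 of 29 passed, where 6 genes (0.0910%) did. DESeq2 and limma-voom called 0 members as well. At an unadjusted p under 0.05 there was 1 member in Input, Kcnd2, and none in IP. The median log2 difference of the members was 0.07 in Input and -0.02 in IP, beside -0.01 and 0.00 for all genes. At shares of calls this low, a count of 0 among 29 genes sets the members apart from no other genes.

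Kcnd2, the pore of the transient outward potassium channel, had 4, 6 and 7 counts in WT Input and 9, 11 and 8 in KO Input, or 9.53, 14.1 and 22.5 CPM against 32.8, 40.5 and 43.5 CPM. The KO libraries lay above the WT libraries (log2 fold change 1.36, SE 0.51, unadjusted p 0.0137, adjusted p 0.539). In IP the genotypes overlapped, at 36.8, 19.7 and 43.8 CPM in WT and 35.7, 21.2 and 55.6 CPM in KO (0.14, SE 0.36). Next in Input were Cacnb2 (0.70, SE 0.39, adjusted p 0.742) and Tmem38a (0.27, SE 0.16, adjusted p 0.755). Cacnb2 moved to 1.14 without WT Input replicate 2, 0.41 without WT Input replicate 3, 0.44 without KO Input replicate 3 and 0.15 without replicate 3 of both groups. For Tmem38a the 3 KO Input libraries, at 419 to 419.8 CPM, lay above the WT range of 324 to 370.1 CPM. The KO Input libraries also lay above those of WT for Jph2 and Trdn, neither past the threshold.

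In IP the smallest p belonged to Pln, with the KO libraries at 3196 to 3689 CPM below the WT libraries at 4078 to 4460 CPM (-0.29, SE 0.16, unadjusted p 0.0817, adjusted p 0.962). Scn4b followed, with 32.5, 37.7 and 57.2 CPM in WT and 22.3, 21.2 and 41.3 CPM in KO (-0.57, SE 0.33, adjusted p 0.962). Calm3 came next, with 214, 142 and 165 CPM in WT and 198, 206 and 232 CPM in KO (0.29, SE 0.18, adjusted p 0.962). For Scn4b and Calm3 the libraries overlapped. Besides Pln, the genotypes were also separated in IP for Cacnb2, lower in KO, and for Kcnj2, Kcnip2 and Kcnh2, higher in KO, none past the threshold. A separation of 3 against 3 libraries has an exact permutation p of 0.10. The difference of Scn4b was -0.30 without WT IP replicate 3, -0.37 without KO IP replicate 2 and -0.95 without KO IP replicate 3, and that of Calm3 became 0.46 when WT IP replicate 1 was left out and 0.15 when WT IP replicate 2 was.

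For the abundant members the intervals limit what could have been missed. The 95% interval of the KO difference in IP was -0.45 to 0.27 for Atp2a2, -0.61 to 0.04 for Pln, -0.15 to 0.56 for Jph2 and -0.44 to 0.18 for Asph, on the log2 scale. The SE over the 29 members were 0.16 to 0.51 in Input and 0.15 to 0.41 in IP. With library totals in place of TMM, the median over all genes rose by 0.111 in the IP comparison, and 8 members took the other sign with that shift of all genes. The difference of Pln in IP was then -0.17.

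**Figure D5:**
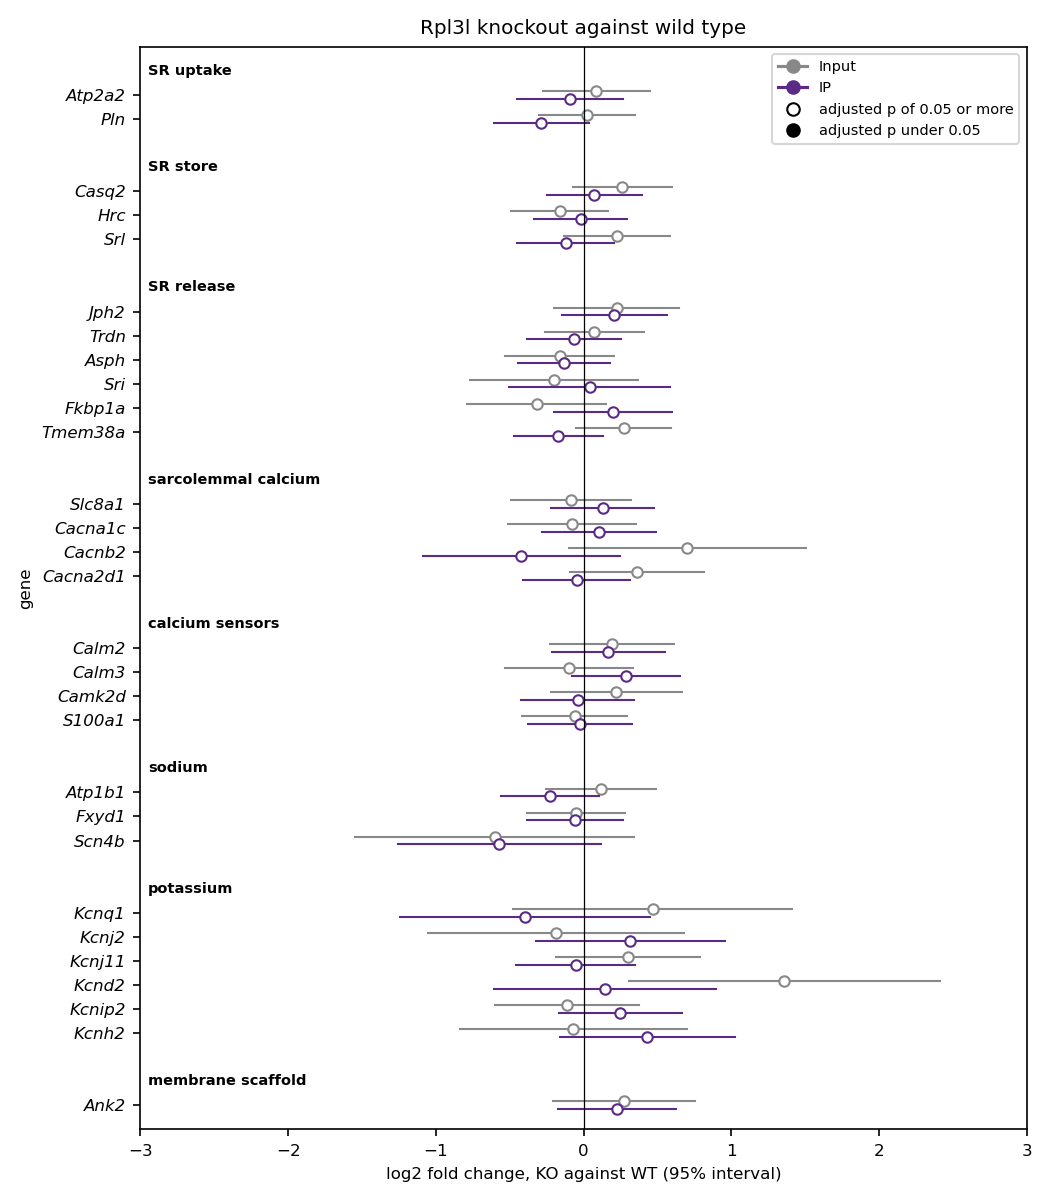
Log2 fold change of KO against WT for the 29 members tested, by role, in Input (grey) and IP (purple), with 95% intervals; open points did not pass the adjusted p threshold of 0.05. All points are open, and only the interval of Kcnd2 in Input leaves 0 out.

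Whether the ratio of IP to Input itself differed between KO and WT was tested as an interaction. Of the 29 members 0 passed, where 6 of 6596 genes (0.0910%) did, and 1 had an unadjusted p under 0.05; DESeq2 and limma-voom called 0 members as well. That gene was Cacnb2 (-1.12, SE 0.51, unadjusted p 0.0359, adjusted p 0.693), with 5 to 22 counts in the Input libraries. Tmem38a (-0.44, given above) and Kcnd2 (-1.22, SE 0.63, adjusted p 0.745) followed. For Jph2, Asph and Fxyd1 the interaction was -0.02 (SE 0.27), 0.03 (SE 0.23) and -0.01 (SE 0.22).

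The coding sequences were also described by 2 features. The share of codons of the forms CCN and GCN (proline and alanine) ran from 6.14% in Scn4b to 19.8% in Jph2, and GC content from 39.6% in Trdn to 67.1% in Jph2. Across the 29 members Spearman's rho with the KO difference in IP was 0.05 for the codon share and 0.08 for GC content, beside 0.03 and 0.05 across all genes with a coding sequence.

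Another 110 genes of the same pathways, in 6 lists, were read from the same fit, and 58 of them were tested. Between KO and WT 0 passed in Input, in IP and in the interaction, with 6, 8 and 4 at an unadjusted p under 0.05. Between IP and Input 9 passed in WT (15.5%, with 4 higher and 5 lower) and 9 in KO (15.5%, with 5 higher and 4 lower), close to the 14.0% and 16.4% of all genes.

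Among the SR and calcium genes of these lists, sarcolipin (Sln), the atrial counterpart of phospholamban, was at 930 ± 215 CPM (SD, n = 3) in WT Input and 65.8 ± 46.2 CPM in WT IP, and 1109 ± 128 and 63.4 ± 23.9 CPM in KO. Its log2 fold changes were -3.84 (SE 0.31, adjusted p 3.8e-09) and -4.14 (SE 0.31, adjusted p 1.61e-09), and Sln is 1 of the 6 atrial markers that were lower in IP. Kcnj3, the atrial G protein-gated potassium channel and likewise an atrial marker, had -0.93 (adjusted p 0.00533) in WT and -1.01 (adjusted p 0.00383) in KO. Their place in the ventricle, the atrium or in tagged cells was not tested.

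Prkar1a, a regulatory subunit of protein kinase A, was higher in IP by 0.56 (adjusted p 0.0219) in WT and 0.61 (adjusted p 0.0136) in KO, and Ppp1cb, a phosphatase catalytic subunit, was lower in IP of KO hearts (-0.98, adjusted p 0.000159) with -0.46 (adjusted p 0.0570) in WT. The ryanodine receptor itself, Ryr2, was higher in IP of KO hearts (0.55, SE 0.16, adjusted p 0.0203), with 0.45 (adjusted p 0.0566) in WT. The naming rule left out Ryr2, which was picked after its values had been seen. Atp1b3, another beta subunit of the sodium pump, was lower in IP of WT hearts (-0.65, adjusted p 0.0388), with -0.27 (adjusted p 0.462) in KO.

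Of the potassium channel genes Kcnk3, a background channel, was higher in IP of both genotypes (0.62, adjusted p 0.016 in WT and 0.74, adjusted p 0.00583 in KO). Abcc8, a sulfonylurea receptor, was lower in IP of WT hearts (-1.52, adjusted p 0.0221) and had the opposite sign in KO (0.62, adjusted p 0.406), and the interaction did not pass (adjusted p 0.401). Its counts were few, at 15, 13 and 9 in WT Input and 8, 10 and 3 in WT IP. In KO they were 6, 3 and 5 in Input and 14, 25 and 17 in IP. In the scaffold list Sptbn1 was lower in IP of WT hearts (-0.67, adjusted p 0.0213), with -0.34 (adjusted p 0.261) in KO. In the mitochondrial list Vdac2 was higher in IP than in Input of KO hearts (0.61, adjusted p 0.0141) and had -0.07 (adjusted p 0.813) in WT, with an interaction of 0.68 (SE 0.23, adjusted p 0.528).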

How the data were processed

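Input and IP poly(A) RNA of mouse hearts was read as nanopore direct cDNA, 3 libraries per group. The deposited files hold whole-number read counts per gene, made by the authors from reads. The submitters' processing notes name minimap2 2.14, DESeq2 1.34.0 and GRCm38, and the counting rule, its use of strand and its treatment of shared reads are not given in the sources used here, so a gene and an overlapping antisense gene cannot be told apart. Of 55401 gene IDs, 55141 matched GENCODE M21 without their version (54349 with it), which gave names, lengths, coordinates and coding sequences. Length is that of the longest annotated transcript.

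The test was edgeR's quasi-likelihood test (edgeR 4.0.16 in R 4.3.3, with limma 3.58.1), with TMM scaling and group means of all 12 libraries in 1 model. The filter was filterByExpr with a minimum count of 10 and a minimum total of 15. The common dispersion was 0.0333, or 18.2% as a coefficient of variation between libraries. Within each of 5 contrasts, Benjamini-Hochberg adjustment ran over 6596 genes. CPM values were computed here from the deposited counts. A single value of 3 against 3 libraries has a smallest exact permutation p of 0.10. Alternatives were DESeq2 size factors and test (DESeq2 1.42.0), limma-voom, library totals, other count filters (none, or 30 counts in 3 libraries), only the compared libraries, a replicate block, removal of the length trend (loess, span 0.5) and each library left out. Fits without globin genes, and without replicate 3 of both Input groups, were chosen after seeing the data. The fit was tested on simulated counts.

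Full values are given for members past the threshold in any contrast, or, where fewer than 3 passed, the 3 with the smallest p, and of the pathway lists up to 3 called genes per list and contrast, of which some are not reported here. The members, lists, ratios and features were chosen with earlier results of these data known.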

Additional observations from a re-analysis of the deposited data

How the results depend on the processing

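With 169359 to 710868 counts per library, genes of few counts such as Kcnd2, Cacnb2 and Scn4b limit the comparison most, and no member passed between KO and WT or in the interaction under any alternative run. Jph2 kept its side of the threshold under all 18 alternatives in each genotype, and Asph under 17, the length trend being the exception. The number of genes called between KO and WT in Input was 12, and 77 without a count filter, 5 with at least 30 counts in 3 libraries, 6 without replicate 3 of both Input groups, and 4 to 17 without 1 library. In IP it was 6, and 55 without a filter, 10 with DESeq2 and 2 to 7 without 1 library. For the interaction it was 6, and 37 without a filter, 1 with limma-voom, 2 without replicate 3 of both Input groups and 1 to 8 without 1 library. Between IP and Input in WT 926 genes became 602 to 685 without 1 library, and 6 members became 3 with the length trend removed (788 genes), 3 to 4 without 1 library, 9 with only the compared libraries (1168 genes), 8 with at least 30 counts in 3 libraries (795 genes) and 7 with DESeq2 size factors (931 genes) or library totals (856 genes). In KO 1083 genes became 1047 with library totals and 739 to 995 without 1 library, where 4 members became 2 and 2 to 7, with 7 (of 995 genes) without KO Input replicate 3. Among the members called between IP and Input, signs turned for Tmem38a in WT (0.0297 with library totals, where the median of all genes rose to 0.107, and 0.01015 without a filter, never past the threshold) and for Fxyd1 in KO (0.0437 with the length trend removed). Of the other members, S100a1 (0.14 in WT and 0.24 in KO), Slc8a1 (-0.17 and -0.16) and Ank2 (-0.07 and -0.30) turned with the length trend removed. So did Kcnh2 in WT and Cacna2d1 and Kcnj11 in KO, none past the threshold. With library totals 2 members took the other sign in WT, Tmem38a among them, and 2 in KO. The cause was not tested, apart from the fewer libraries or genes of a setting.

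Libraries with the same replicate number correlated at -0.192 to 0.127 in their deviations from the group means, and in 3 of 18 pairs no other number matched better. At this depth such deviations may hold mostly counting noise, so the check does not tell whether libraries of the same number share a heart. The labels do not say, and the numbers were not treated as pairs. With a replicate block 15 genes passed between KO and WT in Input, 8 in IP, 858 and 1009 between IP and Input in WT and KO, and 4 in the interaction, and the number of members called was 0, 0, 6, 4 and 0. With a block by genotype and number, Atp2a2 in WT missed the threshold (adjusted p 0.0503).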
